A study of Mus musculus with 15 samples.

Results

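The MYC and MAX network is a set of transcription factors with a shared helix-loop-helix leucine zipper that bind DNA as pairs. The 10 members described here, Myc, Mycn, Mycl, Max, Mxi1, Mxd1, Mxd3, Mxd4, Mnt and Mlx, were chosen by symbol, 10 of the 24411 genes in the count files, and each was present in the files. Poly(A) RNA of mouse liver was sequenced in 15 libraries: 4 labelled TdTomato, the controls, 6 labelled LATS KO (LATS_KO here) and 5 labelled Yap OE (YAP_OE here). Per the series' design text these stand for wild type, Lats knockout and Yap overexpression, in a series whose title concerns monocytes that limit proliferation driven by YAP. LATS kinases phosphorylate YAP, a transcriptional coactivator, and hold it out of the nucleus. The labels give no promoter, Cre line, vector, age or time point for these groups, and do not say whether a group's libraries come from different animals. The p-values therefore measure spread between libraries, which may be technical.

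MYC proteins (Myc, Mycn and Mycl) pair with MAX at E-box sequences and drive genes of ribosome production, metabolism and the cell cycle. The MXD proteins (Mxd1, Mxi1, Mxd3 and Mxd4) and MNT pair with the same MAX, recruit SIN3 and HDAC corepressors, and hold such genes down, while MLX pairs with the glucose-responsive factors MLXIP and MLXIPL and with some MXD proteins. In adult liver Myc is low in resting hepatocytes and is induced during regeneration and in tumours.

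In liver RNA, Myc, Mycn and Mxd3 were higher in both LATS_KO and YAP_OE than in the controls, and the other 7 members did not pass the test. The LATS_KO calls were the less stable ones, and for each of these genes the LATS_KO libraries overlapped the controls. They were lost in 12 of 24 alternative analyses for Myc, 16 of 23 for Mycn and 8 of 24 for Mxd3. In YAP_OE the Myc call was lost in 2 of 24, and those of Mycn and Mxd3 in none. Mycn and Mxd3 were close to undetected in the controls. In 13 libraries, without the 2 of poor mapping described below, Mlx and Mxi1 were lower in YAP_OE as well, and Mycn was higher in YAP_OE than in LATS_KO but no longer passed the test for LATS_KO against the controls. In those 13 libraries 27.2% of all genes tested were higher and 21.2% lower in YAP_OE than in the controls, and 5.56% were higher in YAP_OE than in LATS_KO.

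Promoter sequences of the members are shown for the E-box that the network binds and for the members nearly silent in the controls. RefSeq promoters on GRCm38.p6, which run from 250 bases before to 50 bases after the start site, matched 9 of the 10 members (all but Myc), with 11 promoters in all. They were searched on both strands for the E-box CACGTG, for GGAATG (a core that TEAD factors, the DNA-binding partners of YAP, recognise), for TTTNNCGC (an E2F-type site) and for TTTGAA (a cell-cycle homology element), motifs chosen with the expression results known. Among 32851 mouse promoters of the same length, 7.15% held CACGTG, 14.7% held GGAATG, 5.17% held TTTNNCGC and 17.9% held TTTGAA. The E-box was found in the promoters of Max, Mxd4, Mnt and Mlx, starting at positions -3, -219, -123 and -40 from the start site (the start site is +1), and is in capitals in these 30-base windows, each read 5′ to 3′ on the gene's strand.
Max, chr12:76962234-76962263, minus strand: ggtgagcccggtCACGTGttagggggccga
Mxd4, chr5:34187912-34187941, minus strand: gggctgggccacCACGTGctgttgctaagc
Mnt, chr11:74830789-74830818, plus strand: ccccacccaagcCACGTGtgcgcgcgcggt
Mlx, chr11:101087238-101087267, plus strand: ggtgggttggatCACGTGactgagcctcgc
These 4 genes encode the shared partner, a pair of repressors and the MLX branch, and none of the 4 passed the test with all 15 libraries. A match is a run of letters and does not show binding.

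The 250 bases before the start site are shown for Mycn and Mxd3, the members that were nearly silent in the controls. TTTNNCGC or its reverse complement GCGNNAAA occurred in Mycn at -183, -179 and -168, the first and second of them overlapping, and TTCAAA, the reverse complement of TTTGAA, occurred at -14. These matches are in capitals. Among the 11 member promoters, TTTNNCGC and TTTGAA matched in Mycn and in no other, and GGAATG matched in none. The Mxd3 window holds none of the 4 motifs.
Mycn, chr12:12941837-12942086, minus strand: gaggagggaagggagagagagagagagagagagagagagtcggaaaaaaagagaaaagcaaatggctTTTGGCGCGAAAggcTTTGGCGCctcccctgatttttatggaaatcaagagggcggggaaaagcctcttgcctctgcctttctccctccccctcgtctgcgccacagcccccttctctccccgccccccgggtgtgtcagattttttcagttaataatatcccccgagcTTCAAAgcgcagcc
Mxd3, chr13:55329732-55329981, minus strand: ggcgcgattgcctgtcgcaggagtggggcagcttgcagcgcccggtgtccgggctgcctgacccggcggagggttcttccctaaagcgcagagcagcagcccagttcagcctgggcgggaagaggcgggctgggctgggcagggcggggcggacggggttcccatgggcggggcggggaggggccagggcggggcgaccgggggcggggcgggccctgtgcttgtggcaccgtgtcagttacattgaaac

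Depth and library quality bear on every value. Counts assigned to genes ran from 6166680 to 28225400 per library, and 3 counts corresponded to between 0.0921 and 0.333 CPM (counts scaled to library size, after TMM adjustment). In TdTomato 1 and LATS_KO 3, 78.5% and 89.9% of reads did not map, against 2.53% to 16.7% in the other 13 libraries, and 8501 and 9710 genes were detected against 13372 to 15641. The tests of the members and the counts of the gene lists against the controls are therefore also given without these 2 libraries, as the reduced fit, an alternative chosen after the data were seen. Yap1 stood at 184 ± 24.4 CPM (SD, n = 5) in YAP_OE and 104 ± 8.32 (n = 4) in TdTomato, a rise of 0.82 ± 0.17 on the log2 scale (adjusted p = 0.0043). Lats1 stood at 15.5 ± 9.59 CPM in LATS_KO (n = 6) and 29.8 ± 21.3 in TdTomato, and Lats2 at 21.0 ± 12.02 and 14.03 ± 9.40 (adjusted p = 0.62 and 0.70), so whole-gene counts do not show the knockout, and the part of each gene that was deleted is not given in the labels. Hepatocyte markers (8 genes) summed to between 38975 and 171009 CPM in every library, as the tissue label says. Most of this sum was Alb, while the listed marker Ass1 averaged only 0.510 CPM in TdTomato, 0.223 in LATS_KO and 0.0680 in YAP_OE. The reason for the low Ass1 counts was not tested.

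Markers of other cell types differed in level between the groups, and in bulk RNA more RNA per cell and more cells of a type cannot be told apart. Summed over 8 Kupffer cell and macrophage markers, the level was 3.81 to 13.1 CPM in TdTomato, 123 to 815 in LATS_KO and 315 to 569 in YAP_OE. Summed over 7 cholangiocyte markers it was 24.1 to 47.9 CPM in TdTomato, 91.4 to 4377 in LATS_KO and 3712 to 6184 in YAP_OE, and over 6 stellate cell and fibroblast markers 0 to 1.67, 0 to 16.8 and 25.6 to 168. The cholangiocyte sum was mostly Spp1, which averaged 4606 CPM in YAP_OE beside 80.3 for Sox9, 10.7 for Epcam and 5.09 for Krt19. Endothelial markers (6 genes) summed to 13.2 to 43.3, 11.8 to 222 and 90.1 to 144 CPM, and those of monocytes and neutrophils (6 genes) to 0 to 0.953, 0 to 42.6 and 4.34 to 8.47. Lymphocyte markers (6 genes) stayed at or under 1.14 CPM in every library. In TdTomato 1 all 6 stellate, all 6 lymphocyte and all 6 monocyte and neutrophil markers were at 0, and so they were in LATS_KO 3. Whether the Myc, Mycn and Mxd3 counts came from hepatocytes or from these other cells was not tested.

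Myc lies at chr15:61985391-61990374 (GENCODE M21, GRCm38, plus strand) and encodes the main MYC protein of proliferating cells. Its level in TdTomato 1 to 4 was 0, 3.70, 18.0 and 1.87 CPM. In LATS_KO 1 to 6 it was 104, 71.1, 94.4, 26.1, 9.10 and 29.1 CPM, and in YAP_OE 1 to 5 it was 76.3, 52.9, 63.7, 65.3 and 70.2. The YAP_OE libraries lay close together and all above the controls. Those of LATS_KO covered more than a 10-fold range, and LATS_KO 5 lay below TdTomato 3. In group means this was 5.88 ± 8.19 CPM (SD, n = 4) in TdTomato, 55.6 ± 39.5 (n = 6) in LATS_KO and 65.7 ± 8.65 (n = 5) in YAP_OE. Myc rose by 3.25 ± 0.96 (SE) on the log2 scale in LATS_KO (adjusted p = 0.041) and by 3.49 ± 0.99 in YAP_OE (adjusted p = 0.017), with edgeR's quasi-likelihood test and Benjamini-Hochberg adjustment over 13055 genes. The reduced fit gave 2.63 (adjusted p = 0.042) and 3.09 (adjusted p = 0.0094).

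The control level of Myc rested on TdTomato 3, and leaving it out moved the log2 difference to 4.87 for LATS_KO and to 5.11 for YAP_OE, both still past the threshold. The LATS_KO call was lost when any of TdTomato 2, TdTomato 4, LATS_KO 1, 2 or 3, or YAP_OE 1 to 5 was left out, with adjusted p between 0.053 and 0.11. The YAP_OE call was lost without TdTomato 2 (adjusted p = 0.0501) and without TdTomato 4 (adjusted p = 0.052), with the log2 difference at 3.08 or above in every fit that left out a library.

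Mycn, at chr12:12936093-12941914 on the minus strand, encodes the MYC protein of embryonic and neural progenitor cells and is low in adult liver. TdTomato 1 to 4 read 0, 0.386, 0 and 0.144 CPM, 10 counts in all. LATS_KO 1 to 6 read 3.57, 3.01, 6.67, 0.132, 0.405 and 0.300 CPM, and YAP_OE 1 to 5 read 10.7, 13.3, 10.96, 8.18 and 9.13. LATS_KO 1 to 3 thus stood at 3 CPM or more, LATS_KO 4 to 6 in or near the range of the controls, and the 5 YAP_OE libraries above every library of the other groups. Group means were 0.132 ± 0.182 CPM in TdTomato, 2.35 ± 2.59 in LATS_KO and 10.5 ± 1.97 in YAP_OE. Mycn rose by 6.15 ± 1.33 on the log2 scale in YAP_OE (adjusted p = 0.0053, 5.76 and 0.0026 in the reduced fit) and by 3.98 ± 1.21 in LATS_KO (adjusted p = 0.045). The LATS_KO call was lost in the reduced fit (2.96, adjusted p = 0.079) and when any library other than LATS_KO 4, 5 or 6 was left out (adjusted p 0.056 to 0.11). With limma voom and quality weights the LATS_KO difference was 0.85 (adjusted p = 0.48). Without TdTomato 2 the log2 difference was 5.21 for LATS_KO and 7.38 for YAP_OE, and without LATS_KO 3 it was 3.33 for LATS_KO. With so few control counts the size of these folds depends on the small count that edgeR adds before taking logarithms.

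Mxd3, at chr13:55325168-55329823 on the minus strand, is the MXD repressor known for its expression in S phase rather than in differentiated cells. The controls read 0, 0.110, 0.159 and 0.0479 CPM, 5 counts in all. LATS_KO 1 to 6 read 3.57, 6.02, 0, 2.06, 0.607 and 0.901 CPM, and YAP_OE 1 to 5 read 7.69, 2.19, 1.20, 1.82 and 7.45. Apart from LATS_KO 3, each of the 11 LATS_KO and YAP_OE libraries lay above all 4 controls. Group means were 0.0793 ± 0.0697 CPM, 2.19 ± 2.26 and 4.07 ± 3.22 in TdTomato, LATS_KO and YAP_OE. Mxd3 rose by 4.72 ± 1.28 on the log2 scale in LATS_KO (adjusted p = 0.029, 0.013 in the reduced fit) and by 5.59 ± 1.34 in YAP_OE (adjusted p = 0.0081, 0.0029 in the reduced fit). The call in LATS_KO was lost without any of TdTomato 1 to 4 or without LATS_KO 2 (adjusted p 0.059 to 0.089), and without LATS_KO 2 the log2 difference was 4.10. Prelid1 overlaps Mxd3 on the opposite strand over 105 exonic bases, and the forward column held 200 to 1191 counts at Mxd3 per library. With counts taken without strand, the log2 difference of Mxd3 in LATS_KO was 3.54 and did not pass (adjusted p = 0.078).

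Of the 10 members, 3 were higher in LATS_KO and 3 in YAP_OE, with none lower in either. Among all genes tested, 10% were higher and 0.973% lower in LATS_KO, and 17.9% were higher and 10.8% lower in YAP_OE. Between YAP_OE and LATS_KO the shares were 0.498% and 0.490%. In the reduced fit these shares were 13.7% higher and 3.24% lower in LATS_KO, 27.2% and 21.2% in YAP_OE, and 5.56% and 7.17% between YAP_OE and LATS_KO. The members called in that fit were 2 higher and 0 lower in LATS_KO, 3 higher and 2 lower in YAP_OE, and 1 higher and 0 lower between YAP_OE and LATS_KO. The median log2 difference over the 10 members was 0.23 in LATS_KO and 0.34 in YAP_OE, beside 0.13 and 0.17 over all genes tested. All 10 members passed the filter on low counts, Mycn and Mxd3 through the LATS_KO and YAP_OE libraries alone, so their share of calls is a count and not a test of the network. In a fit of LATS_KO and TdTomato alone, where Mycn did not pass the filter, 0 of the 9 members tested and 1 gene in all were called, with 3 members at an unadjusted p under 0.05, while DESeq2 on all 15 libraries called 3 members. Both comparisons share the 4 TdTomato libraries.

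**Figure D1:**
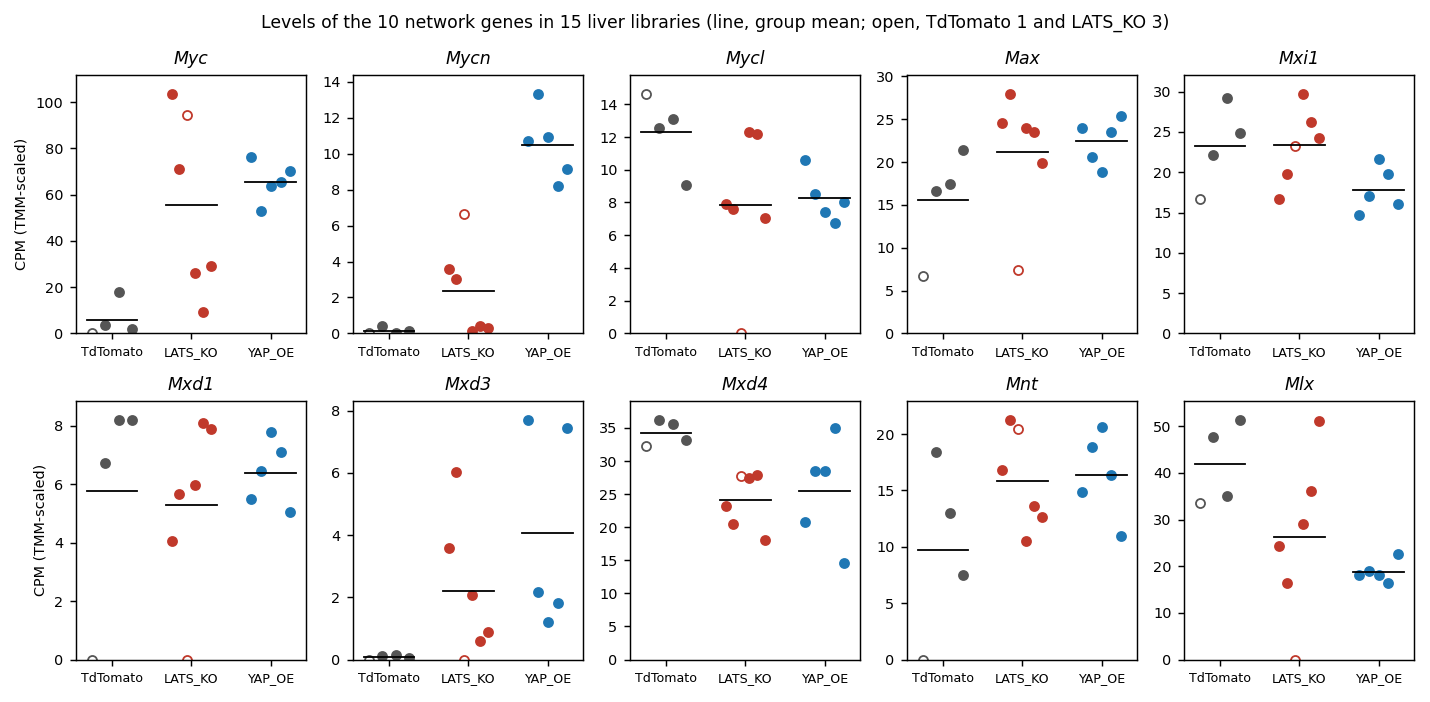
Level of each of the 10 network genes in 15 liver libraries, in CPM on a linear axis that starts at 0 and differs between panels. Points are libraries, lines are group means, and open points are TdTomato 1 and LATS_KO 3. Myc, Mycn and Mxd3 sit near 0 in most TdTomato libraries, and the 5 YAP_OE points lie above every control in these 3 panels and below every control for Mlx.

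Mlx, at chr11:101087277-101092207 on the plus strand, had the lowest log2 difference of the 10 members in YAP_OE, and encodes the partner of the glucose-responsive factors. TdTomato 1 to 4 read 33.6, 47.8, 35.1 and 51.3 CPM. LATS_KO 1 to 6 read 24.4, 16.4, 0, 29.2, 36.1 and 51.1 CPM, and YAP_OE 1 to 5 read 18.1, 19.0, 18.0, 16.5 and 22.5. The YAP_OE libraries all lay below the controls, while LATS_KO spanned from 0, in LATS_KO 3, up to the highest control. The log2 difference in YAP_OE was -1.16 ± 0.76 (adjusted p = 0.28) with all 15 libraries. It passed in 4 of 24 alternatives. Among them were the reduced fit, at -1.25 ± 0.28 (adjusted p = 0.0040), and the fit without LATS_KO 3 alone (-1.16, adjusted p = 0.0052). LATS_KO 3 belongs to neither group of that comparison, and its 0 enters through the spread that the fit shares over all groups. In LATS_KO the difference was -0.68 ± 0.72 (adjusted p = 0.62) and in the reduced fit -0.51 (adjusted p = 0.23). Psmc3ip overlaps Mlx on the opposite strand over 385 exonic bases, and the forward column held between 0 and 9 counts at Mlx in any library.

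Among the MXD and MNT repressors other than Mxd3, no member passed the test with all 15 libraries. Mxd4 (chr5:34173883-34187720, minus strand), an MXD gene of differentiated tissues, read 32.3, 36.2, 35.6 and 33.2 CPM in TdTomato and 23.3, 20.5, 27.8, 27.5, 27.9 and 18.1 in LATS_KO. Every LATS_KO library lay below every control, yet the log2 difference of -0.51 ± 0.24 did not pass (adjusted p = 0.19, 0.11 in the reduced fit). Among all genes tested, 1.90% had LATS_KO libraries that were all below the controls. In YAP_OE Mxd4 read 20.8, 28.5, 28.4, 35.0 and 14.5 CPM, which overlapped the controls (-0.43 ± 0.25, adjusted p = 0.21, 0.13 in the reduced fit). This YAP_OE difference passed in 1 of 24 alternatives.

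Mxi1 (chr19:53310518-53375810, plus strand), the MXD member also called Mxd2, read 16.7, 22.1, 29.2 and 24.9 CPM in TdTomato and 14.7, 17.0, 21.7, 19.7 and 16.03 in YAP_OE. The ranges overlapped through TdTomato 1, and the log2 difference was -0.38 ± 0.25 (adjusted p = 0.28). In the reduced fit it was -0.51 (adjusted p = 0.047). The YAP_OE difference passed in 2 of 24 alternatives, the reduced fit among them. LATS_KO ran from 16.7 to 29.7 CPM with a median of 23.7, and its log2 difference of 0.0074 ± 0.24 had a 95% interval of -0.51 to 0.53 (-0.12 in the reduced fit, adjusted p = 0.71).

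Mxd1 (chr6:86647042-86669161, minus strand), the MXD gene induced as cells differentiate, averaged 5.77 ± 3.91 CPM in TdTomato, 5.27 ± 2.99 in LATS_KO and 6.37 ± 1.13 in YAP_OE. Mnt (chr11:74830920-74845725, plus strand), the broadly expressed repressor of the network, averaged 9.73 ± 7.86, 15.9 ± 4.37 and 16.3 ± 3.75 CPM. Neither passed in any of the 3 comparisons (adjusted p 0.53 or higher). Both read 0 in TdTomato 1, and Mxd1 read 0 in LATS_KO 3. For Mnt the 95% interval of the YAP_OE difference was -0.98 to 2.48 on the log2 scale. In the reduced fit the differences were narrower, at -0.29 ± 0.25 in LATS_KO and -0.27 ± 0.24 in YAP_OE for Mxd1 (adjusted p = 0.45 and 0.37) and at 0.21 ± 0.30 and 0.33 ± 0.31 for Mnt (adjusted p = 0.68 and 0.39).

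Max (chr12:76937269-76962201, minus strand), the partner that MYC, MXD and MNT proteins share, read 6.66, 16.7, 17.5 and 21.4 CPM in TdTomato, 24.5, 27.97, 7.44, 23.9, 23.5 and 19.9 in LATS_KO and 24.0, 20.6, 18.8, 23.6 and 25.4 in YAP_OE. The lowest values were those of TdTomato 1 and LATS_KO 3, and the groups overlapped. The log2 differences were 0.45 ± 0.36 in LATS_KO (95% interval -0.33 to 1.23) and 0.53 ± 0.37 in YAP_OE (-0.28 to 1.34), with adjusted p of 0.48 and 0.32 (0.12 and 0.16 in the reduced fit). Each passed in 1 of 24 alternatives, that of LATS_KO with limma voom and quality weights (0.42, adjusted p = 0.036). Mycl (chr4:122995652-123002485, plus strand), the third MYC gene, was the MYC family member with the highest level in 3 of the 4 controls and passed in neither comparison: it averaged 12.3 ± 2.36 CPM in TdTomato, 7.84 ± 4.50 in LATS_KO and 8.25 ± 1.47 in YAP_OE (adjusted p = 0.64 and 0.62, 0.43 and 0.11 in the reduced fit). The YAP_OE difference of Mycl passed in 1 of 24 alternatives.

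For 4 members the YAP_OE and TdTomato libraries did not overlap with all 15 libraries in view. Myc, Mycn and Mxd3 were above, as were 28.3% of all genes tested, and Mlx was below, as were 13.4%.

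**Figure D2:**
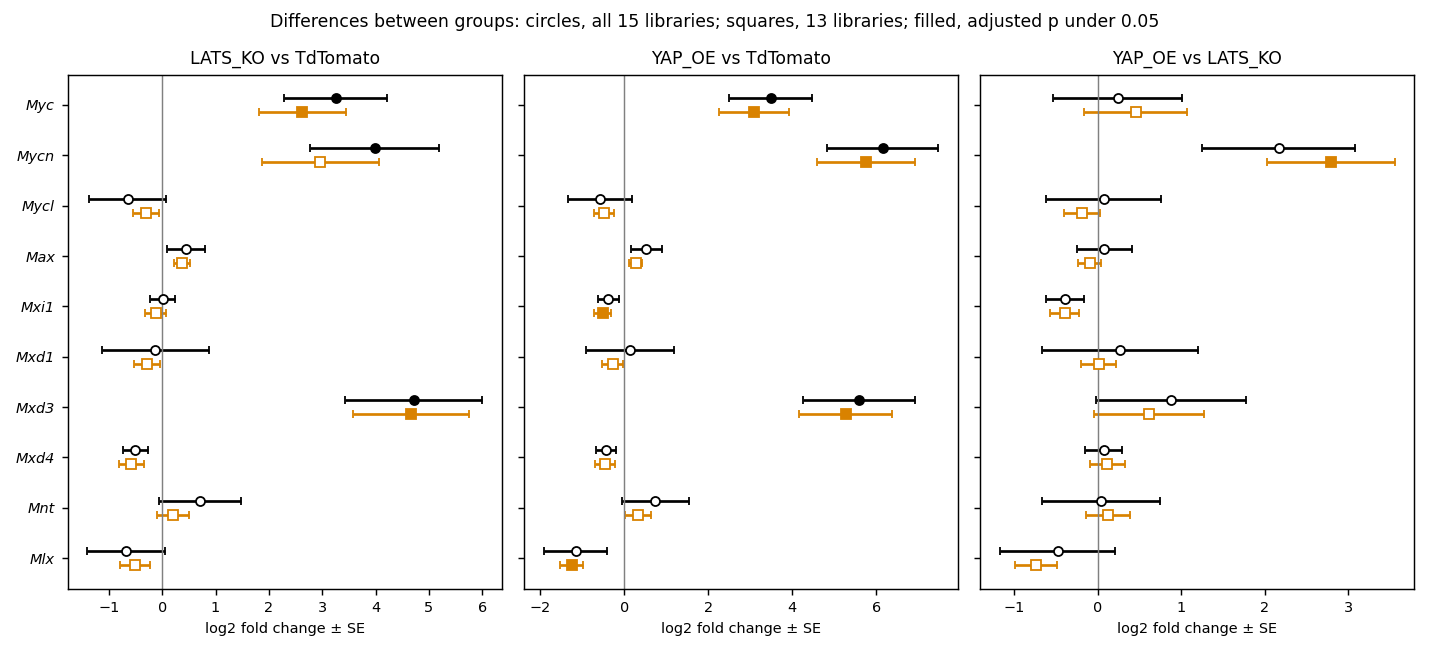
Log2 fold change with its standard error for each member in the 3 comparisons. Circles are the fit of all 15 libraries and squares the reduced fit of 13, and filled symbols have an adjusted p under 0.05. The bars of Myc, Mycn and Mxd3 lie right of 0 in the 2 comparisons with TdTomato, and the bar of Mlx in YAP_OE is much shorter in the reduced fit.

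YAP_OE and LATS_KO were compared directly to ask whether the members differed between knockout and overexpression. With all 15 libraries, edgeR called 0 of the 10 members, and 1 member had an unadjusted p under 0.05. DESeq2 called 0, and limma voom with quality weights called 4 members, beside 7325 of all 13055 genes tested. Those 4 were Myc at 1.59 on the log2 scale (adjusted p = 0.0021) and Mycn at 5.12 (adjusted p = 2.4e-06), both higher in YAP_OE, and Mxi1 at -0.56 (adjusted p = 0.0019) and Mlx at -0.82 (adjusted p = 0.0062), both lower. Mycn was the member with the largest difference, 2.17 ± 0.92 on the log2 scale (95% interval 0.17 to 4.16, adjusted p = 0.28), and each YAP_OE library was above each LATS_KO library, as for 4.76% of all genes tested. In the reduced fit Mycn passed, at 2.79 ± 0.76 (adjusted p = 0.034), and without LATS_KO 3 in the fit of the remaining 14 libraries the difference was 2.80. For Myc the difference was 0.24 with a 95% interval of -1.44 to 1.93 (adjusted p = 0.96, 0.65 in the reduced fit), and for Mxd3 it was 0.88 with an interval of -1.09 to 2.84 (adjusted p = 0.77, 0.55 in the reduced fit). For Mxd3 it was 1.49 without LATS_KO 2. For Mlx it was -0.48 with an interval of -1.99 to 1.03 (adjusted p = 0.87, 0.069 in the reduced fit). These intervals are wide, so the missing calls do not show that the 2 groups act alike.

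To compare levels between genes, CPM was divided by the exon length of each gene (GENCODE M21). In TdTomato, Mlx had the highest level, 21.0 ± 4.46 CPM per kb, followed by Max at 4.32 ± 1.74, Mxd4 at 4.04 ± 0.221, Mxi1 at 3.40 ± 0.772, Mycl at 3.05 ± 0.585, Myc at 2.16 ± 3.01 and Mnt at 2.10 ± 1.70. Mxd1 stood at 0.817 ± 0.553, Mycn at 0.0402 ± 0.0553 and Mxd3 at 0.0335 ± 0.0294 CPM per kb. Neighbours from Max down to Mnt lay within 1 SD of each other, and so did Mycn and Mxd3, while Mlx stood above all the rest in each control. In YAP_OE the order was led by Myc at 24.2 ± 3.18 CPM per kb, then Mlx at 9.42 ± 1.13 and Max at 6.24 ± 0.747, and from Mnt at 3.53 ± 0.810 through Mycn at 3.18 ± 0.598, Mxd4 at 3.00 ± 0.929, Mxi1 at 2.61 ± 0.413, Mycl at 2.04 ± 0.364 and Mxd3 at 1.72 ± 1.36 neighbours lay within the larger SD of each pair, except Mxi1 and Mycl. Mxd1 was last at 0.901 ± 0.159. Mycn thus moved from the ninth place to the fifth. In LATS_KO, Myc was first at 20.5 ± 14.5 and Mlx second at 13.1 ± 8.70 CPM per kb, with SDs that overlap, and Mycn was last at 0.712 ± 0.785.

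Summed per kb, the MXD and MNT genes covered a narrower range than the MYC genes. The 5 MXD and MNT genes summed to 6.25, 12.5, 12.5 and 10.4 CPM per kb in TdTomato 1 to 4, to between 9.92 and 13.3 in LATS_KO and to between 10.3 and 12.6 in YAP_OE, ranges that overlap, with TdTomato 1 the lowest library. The 3 MYC genes summed to 3.62, 4.58, 9.85 and 2.97 CPM per kb in TdTomato, to 41.2, 29.0, 36.8, 12.7, 6.50 and 12.5 in LATS_KO, and to 33.9, 25.6, 28.6, 28.2 and 30.6 in YAP_OE. The ratio of the MYC sum to the MXD and MNT sum was 0.580, 0.367, 0.787 and 0.287 in the controls, so repressor RNA exceeded MYC RNA in each of them. It was 2.86, 2.18, 2.27, 2.29 and 2.98 in YAP_OE. In LATS_KO 1 to 6 it was 3.77, 2.19, 3.31, 1.10, 0.565 and 1.26, with LATS_KO 5 inside the range of the controls. These ratios concern RNA and say nothing of protein, and no test was made of them.

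Within the MYC family, Myc led in every LATS_KO and YAP_OE library and in TdTomato 3, and Mycl led in the other 3 controls. Mycl made up 100%, 67.7%, 32.9% and 75.4% of the family sum in TdTomato 1 to 4, 4.75%, 6.48%, 0%, 24.0%, 46.5% and 13.9% in LATS_KO 1 to 6, and between 5.90% and 8.23% in YAP_OE. Myc made up 0%, 29.7%, 67.1% and 23.1% in TdTomato 1 to 4, 76.0% to 85.3% in YAP_OE and 92.6%, 90.4%, 94.5%, 75.7%, 51.6% and 85.4% in LATS_KO 1 to 6. Mycn made up 8.81% to 15.8% in YAP_OE, 0.314% to 5.50% in LATS_KO and 0% to 2.56% in the controls.

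**Figure D3:**
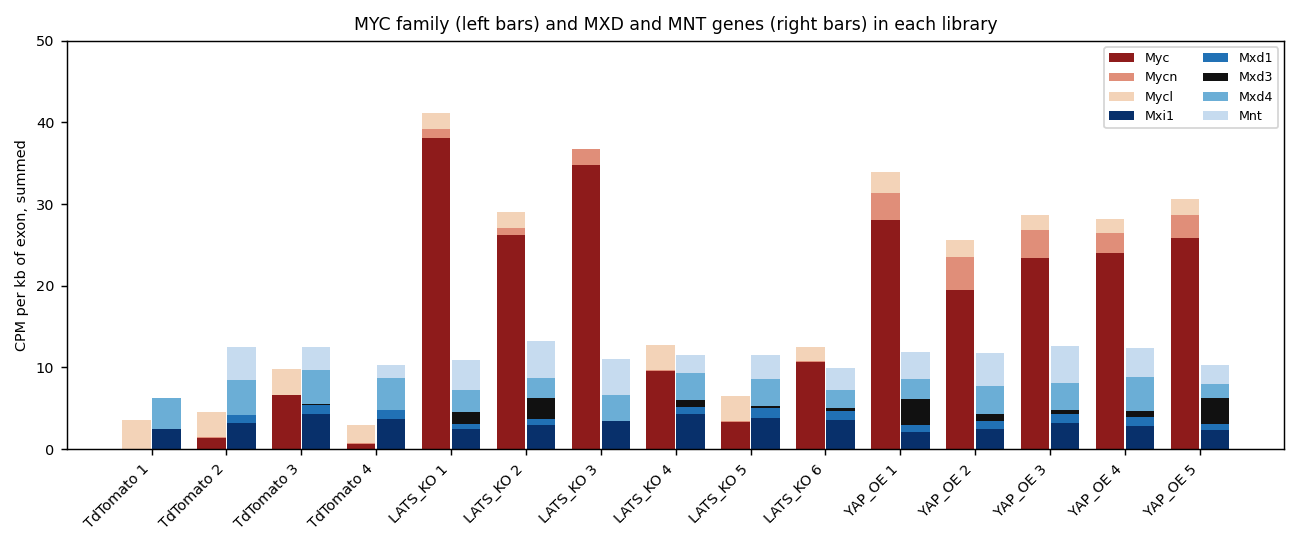
Summed CPM per kb of exon in each of the 15 libraries, for the MYC family (left bars) and for the MXD and MNT genes (right bars), stacked by gene from 0. The right bars are of like height except in TdTomato 1, and the left bars are the taller ones in all 5 YAP_OE libraries and in 5 of the 6 LATS_KO libraries.

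Within LATS_KO, the libraries with high Myc and Mycn also had high proliferation markers. The 8 proliferation markers were Mki67, Top2a, Ccnb1, Ccnb2, Cdk1, Birc5, Foxm1 and Kif23. They summed to 265, 593, 355, 109, 90.4 and 70.7 CPM in LATS_KO 1 to 6 and to 4.40 to 16.7 in TdTomato. Each of the 8 was higher in LATS_KO and each in YAP_OE than in the controls, as were 10% and 17.9% of all genes tested. In the poorly mapped TdTomato 1, 6 of the 8 read 0, while Cdk1 read 9.76 CPM. LATS_KO 1 to 3, which had the 3 highest Myc values and the 3 highest Mycn values of the group, also had the 3 highest marker sums. These 3 libraries also had the highest cholangiocyte sums, 4377, 1919 and 1317 CPM beside 91.4 to 200 in LATS_KO 4 to 6. Their hepatocyte sums were the lowest, 38975 to 84011 CPM beside 146973 to 171009. Lines that name no gene held 16.6%, 16.9% and 92.5% of reads in LATS_KO 1 to 3, and 36.2% to 47.5% in LATS_KO 4 to 6. The part of these differences in the Myc and Mycn values was not tested. In YAP_OE 1 to 5 the proliferation marker sums were 311, 120, 113, 94.4 and 249 CPM. The Mxd3 values of 7.69 and 7.45 CPM in YAP_OE 1 and 5 came with the 2 highest sums of that group. The same 2 libraries held the 2 highest Myc values of the group, 76.3 and 70.2 CPM beside 52.9 to 65.3 in YAP_OE 2 to 4, and their Mycn values of 10.7 and 9.13 CPM lay inside the range of 8.18 to 13.3 in YAP_OE 2 to 4. YAP_OE 1 and 5 also had 7.87% and 13.6% unmapped reads, against 2.53% to 2.83% in YAP_OE 2 to 4. The part of mapping quality in the Mxd3 values was not tested.

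**Figure D4:**
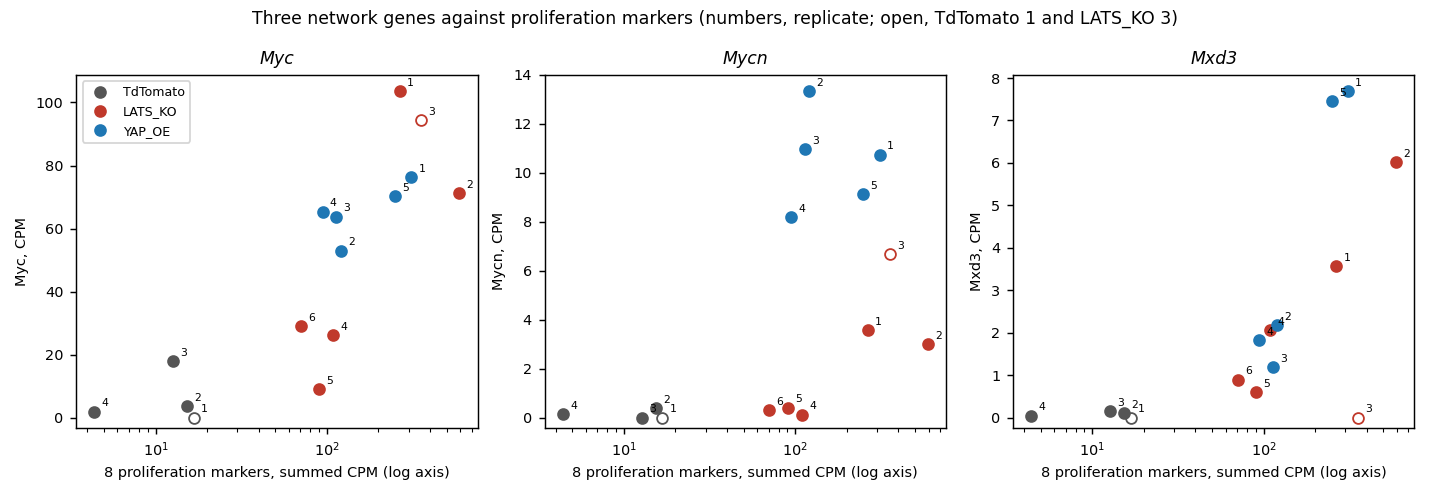
CPM of Myc, Mycn and Mxd3 against the summed CPM of 8 proliferation markers (log axis), 1 point per library with its replicate number, open for TdTomato 1 and LATS_KO 3. The highest Mxd3 points of LATS_KO (LATS_KO 2, 6.02 CPM) and YAP_OE (YAP_OE 1 and 5, 7.69 and 7.45 CPM) are those with the highest marker sums of their group, LATS_KO 3 is at 0, and the Mycn points of YAP_OE stay between 8.18 and 13.3 CPM at every marker level.

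The genes whose pattern was most like each of the members that rose were found by the smallest root mean square difference of log2 CPM after centring, over the 13 libraries with under 50% unmapped reads, among about 9145 genes with a mean of 5 CPM or more. For Myc these were Hells, a chromatin remodeller of proliferating cells, at 0.57, Tuft1 at 0.59 and the condensin subunit Ncapg2 at 0.65, where the median over all genes was 1.80. For Mycn they were Tmem132a at 0.57, the cytokine Clcf1 at 0.65 and Hspa12a at 0.67, against a median of 2.55. For Mxd3 they were the condensin subunit Ncaph at 0.45, the chromatin protein Hmgb2 at 0.48 and the mitotic kinase Cdk1 at 0.49, against a median of 1.94. With 3 genes for each member, no theme was tested. The points share libraries and group differences, so these distances are a description.

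The 4 further members of the extended network, Mga, Mlxip, Mlxipl and Bmyc, did not pass in any comparison (0 of 4 in each, all tested). Mlxipl, the glucose-responsive partner of MLX known as ChREBP, averaged 150 ± 120 CPM in TdTomato, 158 ± 125 in LATS_KO and 114 ± 17.6 in YAP_OE. Bmyc averaged 6.04 ± 4.05, 20.9 ± 17.0 and 17.2 ± 2.47 CPM, and in the reduced fit its log2 difference in YAP_OE was 1.10 (adjusted p = 0.035).

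Cofactors that MYC uses to activate genes, such as the TRRAP and TIP60 complex, the RUVBL ATPases and P-TEFb, gave 0 of 15 calls in LATS_KO and 1 in YAP_OE, with medians of 0.21 and 0.18 beside 0.13 and 0.17 over all genes. The call was Ruvbl2, at 24.9 ± 6.17 CPM in YAP_OE and 12.6 ± 3.65 in TdTomato (0.98 ± 0.30 on the log2 scale, adjusted p = 0.026), lost without TdTomato 3, YAP_OE 1 or YAP_OE 5 (adjusted p 0.058 to 0.064). The reduced fit called 0 cofactors in LATS_KO and 2 higher in YAP_OE. With all 15 libraries, 10% of all genes were higher and 0.973% lower in LATS_KO, and 17.9% and 10.8% in YAP_OE. The SIN3 and HDAC corepressors of MXD and MNT gave 0 of 15 calls in LATS_KO and 2 in YAP_OE, with medians of 0.052 and 0.19. Rbbp7, a histone-binding subunit, was higher in YAP_OE by 0.73 ± 0.22 (adjusted p = 0.022, lost without YAP_OE 1 or YAP_OE 5 at 0.058 and 0.052). Sap18, a SIN3-associated protein, was lower by 0.92 ± 0.34 at the edge of the threshold (adjusted p = 0.04998), and the call was lost when any of 12 single libraries was left out (adjusted p 0.0502 to 0.11; it held without TdTomato 3, LATS_KO 2 or LATS_KO 3). In the reduced fit 1 of the 15 was lower in LATS_KO, and 6 were higher and 2 lower in YAP_OE, where 27.2% of all genes were higher and 21.2% lower.

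Genes that act on MYC protein stability gave 1 call of 14 in LATS_KO and 3 in YAP_OE, all higher, with medians of 0.24 and 0.36. The reduced fit called 2 higher in LATS_KO, and 5 higher and 1 lower in YAP_OE. Of all genes, 10% were higher in LATS_KO and 17.9% in YAP_OE. In the reduced fit 13.7% were higher in LATS_KO, and 27.2% higher and 21.2% lower in YAP_OE. Aurka, a mitotic kinase that also stabilises MYC proteins, averaged 0.8289 ± 0.806 CPM in TdTomato, 15.9 ± 10.7 in LATS_KO and 9.77 ± 5.57 in YAP_OE. It rose by 4.24 ± 0.91 in LATS_KO (adjusted p = 0.011) and by 3.54 ± 0.89 in YAP_OE (adjusted p = 0.0100), and without TdTomato 2 by 4.99 and 4.29. With counts taken without strand both Aurka calls were lost. Trim32, a ubiquitin ligase, rose from 12.7 ± 1.98 to 26.3 ± 1.07 CPM in YAP_OE (1.05 ± 0.29, adjusted p = 0.014) and stood at 13.9 ± 4.60 in LATS_KO. Cip2a, an inhibitor of the phosphatase PP2A and listed in the files under an older symbol, rose by 3.32 ± 1.14 in YAP_OE (adjusted p = 0.039). That call was lost without any of TdTomato 2, 3 or 4, LATS_KO 4 or YAP_OE 1 to 5 (adjusted p 0.051 to 0.093).

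Ribosome biogenesis and growth genes known to be activated by MYC (40 genes, all tested) gave calls in both directions. In LATS_KO 5 were higher and 1 lower, with a median log2 difference of 0.55 beside 0.13 over all genes. An unadjusted p under 0.05 was found for 17 of the 40, and for 3300 of all 13055 genes tested. In YAP_OE 3 of the 40 were higher and 6 lower, with a median of 0.12 beside 0.17. Among all genes tested, 10% were higher and 0.973% lower in LATS_KO, and 17.9% and 10.8% in YAP_OE. The reduced fit called 3 higher and 1 lower in LATS_KO (median 0.31 beside 0.066) and 4 higher and 9 lower in YAP_OE (median -0.022 beside 0.077). Cdk4, the kinase of G1 entry, averaged 26.5 ± 2.73 CPM in TdTomato, 49.4 ± 14.1 in LATS_KO and 70.1 ± 10.03 in YAP_OE. It rose by 1.41 ± 0.23 in YAP_OE (adjusted p = 0.0017) and by 0.90 ± 0.22 in LATS_KO (adjusted p = 0.018, 0.057 without TdTomato 3). Wdr43, a factor of ribosomal RNA processing, rose from 20.1 ± 3.08 to 39.0 ± 9.99 CPM in LATS_KO (0.96 ± 0.22, adjusted p = 0.013) and stood at 27.4 ± 2.47 in YAP_OE. Tfrc, the transferrin receptor, went the other way, from 67.5 ± 11.2 CPM in TdTomato to 33.6 ± 8.07 in LATS_KO and 28.9 ± 5.22 in YAP_OE (-1.004 ± 0.21, adjusted p = 0.0090, and -1.22 ± 0.22, adjusted p = 0.0023). Hspd1, a mitochondrial chaperonin, fell from 579 ± 43.9 to 246 ± 32.7 CPM in YAP_OE (-1.23 ± 0.23, adjusted p = 0.0030) and stood at 438 ± 120 in LATS_KO. Between YAP_OE and LATS_KO 0 of the 40 were called by edgeR, and in the reduced fit 1 was higher and 5 lower in YAP_OE. With another scaling of the libraries (RLE), which moves the median of all genes in YAP_OE from 0.17 to 0.34, 2 of the 6 lower calls (Eif4e and Nme1) were lost.

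Genes known to be repressed by MYC gave 2 higher calls of 10 in LATS_KO, and 4 higher and 1 lower in YAP_OE, with medians of 0.29 and 0.90. Cdkn1a, the CDK inhibitor p21, averaged 6.08 ± 2.33 CPM in TdTomato, 56.2 ± 59.8 in LATS_KO and 229 ± 56.4 in YAP_OE. It rose by 5.23 ± 1.00 in YAP_OE (adjusted p = 0.0032). In LATS_KO it rose by 3.21 ± 0.89 (adjusted p = 0.032), lost in the reduced fit (adjusted p = 0.077) and without any of TdTomato 1 to 4, LATS_KO 1 or LATS_KO 2 (adjusted p 0.063 to 0.094). Gadd45a, a stress-induced growth arrest gene, averaged 10.01 ± 3.67, 31.9 ± 21.4 and 57.6 ± 28.9 CPM and rose by 2.53 ± 0.49 in YAP_OE (adjusted p = 0.0032). Its rise of 1.67 ± 0.46 in LATS_KO (adjusted p = 0.030) was lost without TdTomato 2, 3 or 4 (adjusted p 0.078 to 0.091). Ndrg2, a differentiation gene that is abundant in liver, fell from 1581 ± 109 to 442 ± 59.7 CPM in YAP_OE (-1.84 ± 0.42, adjusted p = 0.0067). The reduced fit called 2 higher in LATS_KO, and 5 higher and 2 lower in YAP_OE. Among all genes, 17.9% were higher and 10.8% lower in YAP_OE, and 27.2% and 21.2% in the reduced fit. In LATS_KO 10% of all genes were higher, and 13.7% in the reduced fit. Cdkn1a and Gadd45a are also known as p53 targets.

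Sugar-response genes of MLX with MLXIPL or MLXIP gave 0 calls of 10 in LATS_KO, and 1 higher and 2 lower in YAP_OE, where the median was -0.75 beside 0.17 over all genes. In the reduced fit 1 was lower in LATS_KO, and 1 was higher and 4 lower in YAP_OE. Of all genes, 17.9% were higher and 10.8% lower in YAP_OE. In the reduced fit these shares were 27.2% and 21.2%, and 3.24% were lower in LATS_KO. G6pc, the glucose-6-phosphatase of hepatocytes, averaged 692 ± 136 CPM in TdTomato, 469 ± 390 in LATS_KO and 89.3 ± 61.2 in YAP_OE (-2.95 ± 0.79, adjusted p = 0.013). Arrdc4, an arrestin that restrains glucose uptake, averaged 17.2 ± 6.67, 12.9 ± 8.19 and 5.03 ± 0.623 CPM (-1.77 ± 0.49 in YAP_OE, adjusted p = 0.016). Fgf21, a liver hormone of the fasting and sugar response, rose from 0.460 ± 0.532 to 9.30 ± 7.11 CPM in YAP_OE (4.28 ± 1.32, adjusted p = 0.025), lost without TdTomato 3 or YAP_OE 1 (adjusted p = 0.055 and 0.059) and at 4.89 without TdTomato 4. Mlx itself was lower in the same YAP_OE libraries, as given above, and the 7 tested hepatocyte markers had a median of -1.07 there, with 1 of 7 lower. The part of hepatocyte content in these values was not tested.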

How the data were processed

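The authors deposited raw counts per gene for each library, unstranded and for either strand. The submitters' processing notes name FastQC, Trimmomatic, STAR and the mm10 genome (versions and settings are not given in the sources used here). Per the labels' protocols, libraries were poly(A)-selected and directional. The labels' extraction text describes mice of another design, so no animal detail was taken from it. The reverse-strand column was used, since the forward column held 0.966% to 1.99% of strand-assigned counts. Lines that name no gene held 14.2% to 92.5% of reads and were left out of library sizes.

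From the deposited counts, TMM-scaled CPM was computed. Low genes were removed with filterByExpr (13055 of 24411 kept, 13256 in the reduced fit) and tested in 1 fit of all 15 libraries (group as the only term, 12 residual degrees of freedom) with edgeR 4.0.16's quasi-likelihood test in R 4.3.3. Two-sided p-values were adjusted by Benjamini-Hochberg across every gene tested, and 0.05 was the threshold. SE is the log2 difference over the square root of the test statistic, and 95% intervals use the t distribution. Log2 CPM used a prior count of 2. Counting precision is given as the CPM of 3 counts and covers counting error only. Tested on simulated counts with changed genes, the test recovered 42% of 4-fold and 66% of 8-fold changes for LATS_KO against TdTomato (12852 genes), 40% and 62% for YAP_OE against TdTomato (12818 genes), and 40% and 62% for YAP_OE against LATS_KO (12794 genes). Of 2-fold changes it recovered 4%, 2% and 4% in these comparisons, and of 16-fold changes 74%, 60% and 76%. Only a small share of genes was changed in the simulation, smaller than the share called in either comparison with the controls. Recovery after adjustment depends on that share, so these rates do not give the power in the real data.

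The members and the 15 gene lists were chosen with earlier results of these data known. Of 164 list symbols, 1 had no entry and 1 was matched by an older symbol (Cip2a). Named were the 10 members, up to 3 genes per pathway list and comparison with the smallest adjusted p, and 3 genes per called member by likeness. Alternatives were RLE size factors, other filters, counts without strand, DESeq2 1.42.0, voom of limma 3.58.1, fits of only the groups compared, a replicate block and leaving out each library, plus the reduced fit. Libraries differed beyond counting noise in every pair within a group, so none was a repeat deposit.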

Additional observations from a re-analysis of the deposited data

Results flagged for a closer look

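In groups of 4 to 6 libraries, a value was singled out where its gap to the nearest other value exceeded Dixon's 95% limit for the group's range. This happened in 13 of 174 groups of values tested, where chance gives about 5%, and in none of the 10 network members. Of the 13 values, 8 were in the poorly mapped libraries. In TdTomato 1, Bmyc was at 0 CPM (next lowest control 7.56), Gpd1 at 319 (577), Rbbp7 at 66.4 (81.7) and Ncaph at 0 (0.670), all low, and Cdk1 was high at 9.76 (next highest 2.21). In LATS_KO 3, Gadd45a at 75.1 CPM (next highest 26.7), Gnl3 at 76.8 (47.7) and Ruvbl1 at 38.1 (23.9) were high. In LATS_KO 2, Cdk9 at 57.3 CPM (43.7), Sap30 at 14.5 (7.25) and Ncaph at 26.7 (10.1) were high. In YAP_OE, Bmyc was high in YAP_OE 4 at 21.5 CPM (17.1) and Mycbp in YAP_OE 5 at 22.5 (13.6).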

How the results depend on the processing

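No comparison was stable in its number of called genes, so a missing call carries little weight, and a call has to be read beside its alternatives. For LATS_KO against TdTomato (1438 genes, 3 members), the count was 2894 with DESeq2, 3504 with voom, 1 with only those 2 groups fitted (0 members), 735 with a replicate block (0 members), 2245 in the reduced fit, and 588 to 1798 (0 to 3 members) when a library was left out. For YAP_OE against TdTomato (3744 genes, 3 members), it was 8872 with voom (8 members), 6416 in the reduced fit (5 members), and 2585 to 4973 (2 to 4 members) when a library was left out. For YAP_OE against LATS_KO (129 genes, 0 members), it was 779 with DESeq2, 7325 with voom (4 members), 13 with a replicate block, 1688 in the reduced fit (1 member), and 36 to 389 (0 members) when a library was left out. The cause was not tested.

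The Myc call in LATS_KO was lost in 12 of 24 alternatives, that of Mycn in 16 of 23 and that of Mxd3 in 8 of 24. In YAP_OE those of Mycn and Mxd3 were kept in all 24 and that of Myc was lost in 2. Replicate numbers did not pair the libraries (same-number correlations -0.25 to 0.23), so the block counts are given here alone.

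Signs turned for values that did not pass. In LATS_KO these were Mxd1 at 0.054 without strand, Mnt at -0.23 with voom, and Mxi1 at -0.053 with 2 groups fitted, -0.0094 with the block and -0.12 in the reduced fit. In YAP_OE Mxd1 was -0.12 with voom and -0.27 in the reduced fit. Between YAP_OE and LATS_KO, voom gave -0.43 for Mycl, -0.13 for Max and -0.00050 for Mxd1, the block gave -0.043 for Mxd4, -0.023 for Mnt and 0.13 for Mlx, and the reduced fit gave -0.19 for Mycl and -0.095 for Max. With a library left out, the ranges were -0.12 to 0.14 for Mxi1 and -0.54 to 0.13 for Mxd1 in LATS_KO, and -0.27 to 0.36 for Mxd1 in YAP_OE. Between YAP_OE and LATS_KO they were -0.19 to 0.25 for Mycl, -0.094 to 0.18 for Max, -0.065 to 0.23 for Mxd4 and -0.053 to 0.16 for Mnt. The cause was not tested.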
